A study of Mus musculus with 48 samples.

Results

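The VH joining profile of a v-Abl transformed mouse pro-B line from which Wapl can be removed was set against that of cultured bone marrow (BM) pro-B cells. Joints were mapped by LAM-HTGTS, in which a primer at a bait segment is extended by linear amplification and each read crosses from the bait into the DNA joined to it, the prey. The bait lay at the JH segments of the immunoglobulin heavy chain locus (Igh), and a deposited list has 1 line for each junction record. The members were the full junction lists of 6 of the 48 samples of the series: 3 libraries titled Wapl-degron IAADox and 3 titled WT BM. The untreated Wapl-degron line gave 3 further libraries as a control, and a treated Wapl-degron line labelled single igh gave 3 more, which are mentioned only for comparison. The series' design names locus contraction and linear RAG scanning as its subject, and the comparison addresses how far the treated line approaches the VH profile of marrow cells.

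The WT BM cells were labelled C57BL/6, RAG1 deficient, were purified on B220 beads and were cultured for 4 to 5 days in IL-7 (10 ng/mL) plus SCF (2 ng/mL). Their lists held V(D)J joints all the same, and the labels name no step that restored RAG to them. The genotype of the line was given as Wapl-degron, OsTIR1, Emu-Bcl2 and RAG1 deficient, with no strain. The line received RAG1/2 by retrovirus. Treated cells had 3 uM STI-571, an Abl kinase inhibitor that arrests such lines, for 1 day. They then had STI-571 with 150 µM IAA (auxin) and 2 mg/mL Dox (doxycycline) for 3 days, whereas untreated cells had 3 uM STI-571 alone for 4 days. The treated and control cells thus also differed in IAA and Dox, and the marrow cells differed from both in origin, transformation, Emu-Bcl2, RAG supply and culture. How many clones of the line were used is not given in the sources used here. Junction lists hold no RNA or protein, so neither the Wapl level nor pro-B marker genes were checked.

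VH, D and JH segments are joined by the RAG endonuclease, which pairs the recombination signal sequences (RSS) that flank them. A D segment joins a JH segment first, and a VH gene then joins the DJH unit. VH genes are spread over a long region upstream of D, and cohesin, a ring complex that extrudes chromatin loops and is unloaded by Wapl, can bring distant VH genes to the RAG-bound centre over the JH segments. In normal pro-B cells the locus contracts and distal VH genes are used widely, while v-Abl lines are known to use mainly the VH genes nearest D.

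An RSS has a heptamer (consensus CACAGTG), a spacer of about 23 bases at VH genes, and a nonamer (consensus ACAAAAACC). The signals below belong to the VH sites on which the comparison turns most: the most used ones in marrow, in untreated cells and in treated cells, and distal genes used less in treated cells than in marrow. All were read from chromosome 12 of mm9 on the minus strand, 5′ to 3′, directly beside or within a few bases of the peak of junctions. Capitals mark the heptamer and the nonamer of the best candidate found there, which can match the consensus poorly, and lower case marks the spacer.
Ighv5-2, chr12:114816676-114816714: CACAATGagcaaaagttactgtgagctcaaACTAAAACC
Ighv2-2, chr12:114826439-114826477: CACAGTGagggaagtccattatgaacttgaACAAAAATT
Ighv12-3, chr12:115604692-115604730: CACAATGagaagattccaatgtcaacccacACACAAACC
Ighv1-26, chr12:116026545-116026582: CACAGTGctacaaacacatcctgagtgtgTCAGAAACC
Ighv1-54, chr12:116431848-116431885: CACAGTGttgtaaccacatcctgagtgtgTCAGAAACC
Ighv8-12, chr12:116886117-116886155: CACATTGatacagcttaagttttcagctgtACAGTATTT
Site at position 116930100, chr12:116930062-116930099: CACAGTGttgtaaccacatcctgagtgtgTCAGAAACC
Ighv1-81, chr12:117158451-117158489: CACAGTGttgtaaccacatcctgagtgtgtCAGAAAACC

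The 3 treated libraries were not 3 independent samples. Among VH joints with at least 15 inserted bases, treated libraries 1 and 2 shared 462 joints with the same prey end, bait end and inserted letters, which was 50.1% of the smaller library. Any 2 libraries of different groups shared 0% to 1.63%. Marrow libraries shared 0% to 2.36% with each other, and untreated libraries shared 3.67% to 7.67%. With each read name counted once, counts of treated libraries 1 and 2 over 1-kb windows of the VH region differed by less than sampling noise (chi-square test, p = 0.629), as did those over the D region (p = 0.649). They were therefore counted as 1 sample, the mean of both, so that n was 2 for the treated line and 3 for marrow and for untreated cells. Treated library 3 joined 2 sequencing runs. Its smaller run shared 44.4% of its long-insert joints with library 1 and 54.2% with library 2, whereas its larger run shared 1.13% and 0.678%. The smaller run gave 1999 of the 5665 VH lines of library 3, so the 2 treated samples were not fully independent either. The labels do not say whether libraries came from separate cultures or animals, and with this sharing SDs and p-values measure only the spread between these libraries.

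Junctions are counted below as lines of the lists. The marrow libraries held 401241, 509261 and 1016401 lines, of which 182742, 83648 and 61394 lay in the VH region. The treated libraries held 113305, 226216 and 122236 lines, with only 3964, 7387 and 5665 in the VH region, and untreated libraries held 1900 to 7962 VH lines. In treated library 2 lines were repeated: its 226216 lines had 161891 distinct read names, and 63768 lines were identical copies of another. In the other marrow and treated libraries surplus lines of a read name made up 0.00482% to 0.192%. With each read name counted once, the mean VH share of D plus VH junctions of the treated line was 4.63% ± 1.12 and its distal share of VH junctions 57.8% ± 0.576, against 4.65% and 57.8% over all lines. Reads carry no molecular identifiers and 1 joining event can be listed many times, so the 95% Wilson intervals and floors given here cover counting error only. Junctions within the JH region, near the bait, ranged from 20286 to 888646 between marrow libraries, and shares were therefore taken of VH junctions or of D plus VH junctions. No sequencing run held both marrow and treated libraries, so run and group cannot be told apart in that contrast. With 3 samples against 2, a two-sided exact permutation test cannot go below p = 0.2.

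VH joints were far rarer in the treated line than in marrow when all lines were counted. They took 48.2%, 50.4% and 51.1% of D plus VH junctions in the marrow libraries. In the treated libraries they took 3.85% (95% Wilson interval 3.74 to 3.97), 3.89% (3.81 to 3.98) and 5.42% (5.28 to 5.56). The untreated libraries stood at 0.831%, 0.877% and 1.01%. Every treated library lay below every marrow library and above every untreated one. The means were 49.9% ± 1.51 (SD, n = 3) in marrow, 4.65% ± 1.09 (SD, n = 2) in the treated line and 0.905% ± 0.0911 (SD, n = 3) without treatment. Marrow was 10.7-fold above the treated line, and the treated line was 5.13-fold above the untreated one. The difference of 45.3 percentage points between marrow and treated cells exceeded the spread of either group (two-sided exact permutation test, p = 0.2, the smallest possible).

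That share depended on how repeats of a junction were counted. Over distinct junctions it was 65.4% ± 4.29 in marrow and 42.5% ± 3.34 in the treated line, a difference of 22.9 points (exact permutation p = 0.2). The smaller run of treated library 3 alone stood at 27.8%, against 3.76% in its larger run, and without it the treated mean was 3.82% ± 0.0778. That smaller run shared 44.4% and 54.2% of its long-insert joints with libraries 1 and 2, which stood at 3.85% and 3.89%. Why its VH share differs from theirs was not tested.

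Among the VH joints themselves, the treated line lay beyond marrow rather than between marrow and the untreated line. Joints in the distal part of the region, from its midpoint at 116025563 to its end at 117238672, took 36.5%, 31.5% and 31.5% of VH junctions in the marrow libraries. They took 58.4% (56.9 to 59.9), 57.9% (56.7 to 59.0) and 57.4% (56.1 to 58.7) in the treated libraries, and 4.95%, 4.46% and 2.86% in the untreated ones. The 3 groups did not overlap. The means were 33.2% ± 2.89 in marrow, 57.8% ± 0.529 in the treated line and 4.09% ± 1.09 without treatment. The treated line was 24.5 points above marrow (two-sided exact permutation test, p = 0.2, the smallest possible). Within the sequencing run that held treated library 2 and all untreated libraries, the values were 57.9% against 2.86% to 4.95%. Over distinct junctions the treated line was 15.8 points above marrow.

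Both measures together placed the treated line below marrow in distal joining as a share of D plus VH junctions. Distal VH joints took 17.6%, 15.9% and 16.1% of them in marrow and 2.25%, 2.25% and 3.11% in the treated libraries. Untreated libraries ranged from 0.0288% to 0.0411%. The means were 16.6% ± 0.938, 2.68% ± 0.606 and 0.0364% ± 0.00659, so that marrow was 6.18-fold above the treated line and the treated line 73.7-fold above the untreated one. The difference of 13.9 points between marrow and treated cells exceeded the spread of both (exact permutation p = 0.2, the smallest possible). Over distinct junctions it was 2.65 points (exact permutation p = 0.4), with means of 26.6% ± 2.63 and 23.97% ± 1.29, and treated library 3 at 24.9% lay above marrow library 3 at 24.5%. Over all lines the difference fell from 13.9 to 7.29 points with the smaller run alone as treated library 3 (exact permutation p = 0.6).

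**Figure D1:**
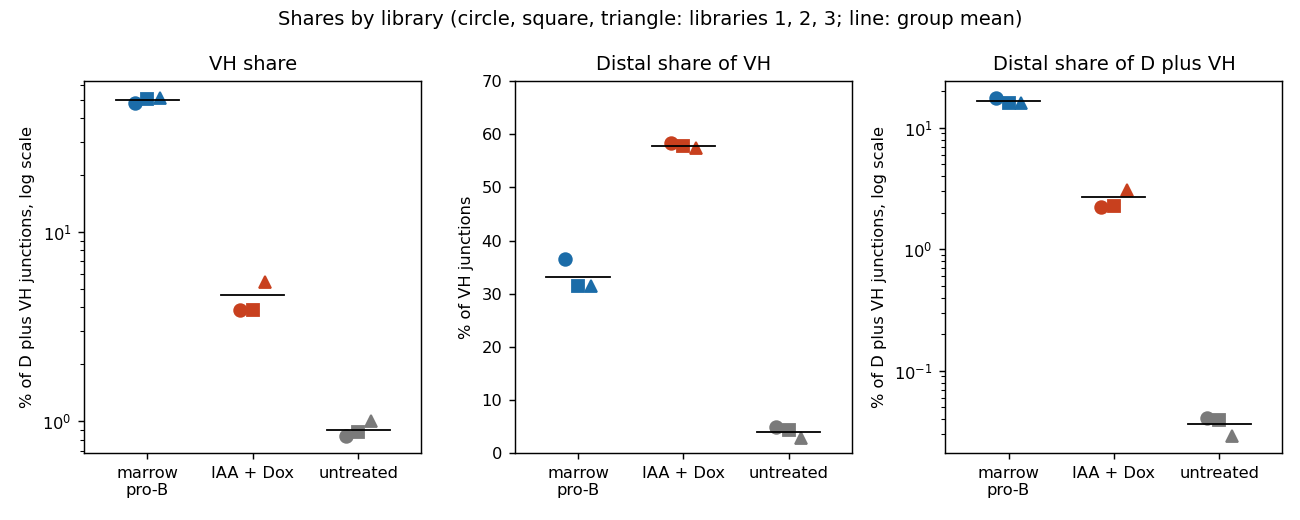
The plots give, for each library, VH joints as a percent of D plus VH junctions (left, log axis), distal joints as a percent of VH junctions (middle, linear axis) and distal joints as a percent of D plus VH junctions (right, log axis), with a line at each group mean; treated libraries 1 and 2 count as 1 sample in that mean. Treated libraries lie between marrow and untreated ones on the left and right, and above marrow, at 57.4% to 58.4%, in the middle.

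The VH region was cut into 10 equal parts to show where along it the profiles parted. As a share of VH junctions, the part nearest D held 18.8% to 24.5% in marrow libraries and 8.16% to 8.38% in treated ones, against 87.5% ± 1.34 in untreated cells. Treated libraries were below marrow libraries in each of parts 1 to 6 and above them in each of parts 7 to 10, with no overlap. By ratio the groups were closest in parts 4 and 5, which held 13.9% ± 0.338 and 11.3% ± 0.601 in marrow and 12.3% ± 0.559 and 10.5% ± 0.0316 in the treated line. By ratio they were farthest apart in part 9, from 116753429 to 116996050, with 3.95% to 4.61% in marrow and 15.6% to 17.0% in treated libraries. Part 10, the far end of the locus, held 11.2% ± 0.623 in marrow and 14.4% ± 0.853 in the treated line. Over distinct junctions the same parts were lower and higher except part 5, where libraries overlapped, and part 9 held 5.39% ± 0.347 in marrow and 13.2% ± 0.812 in the treated line.

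**Figure D2:**
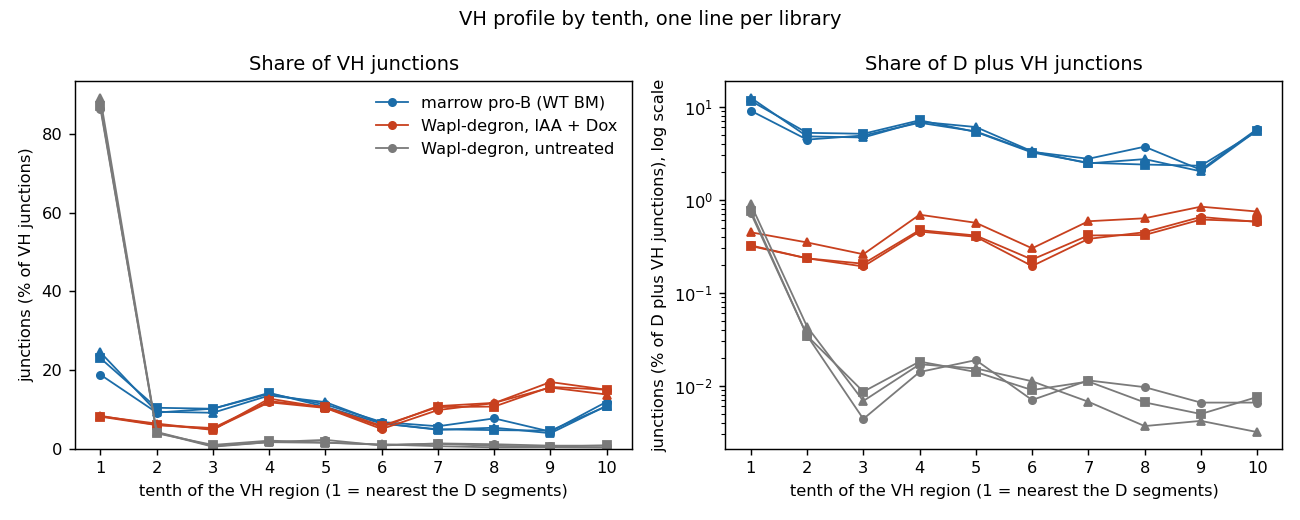
The lines show each library's junctions in 10 equal parts of the VH region, numbered from the D side, as a percent of VH junctions (left, linear axis) and of D plus VH junctions (right, log axis). On the left the treated libraries are low at the D side and high in parts 7 to 10, and untreated libraries have 86.4% to 89.0% in part 1. On the right, where all lines are counted, the marrow libraries lie above the treated ones in all parts.

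As a share of D plus VH junctions, over all lines, every treated library was below every marrow library in all 10 parts, by an amount that differed along the region. Marrow was 28.9-fold above the treated line in part 1, 11.6-fold to 21.5-fold in parts 2 to 6, 5.24-fold and 5.55-fold in parts 7 and 8, 2.91-fold in part 9 and 8.45-fold in part 10. In part 1 the treated libraries, at 0.318% to 0.447%, were also below the untreated ones, at 0.718% to 0.896%. In parts 2 to 10 they were above them, by 7.78-fold in part 2 and 141-fold in part 9. These gaps depended on how repeats were counted. Over distinct junctions marrow was 3.04-fold above the treated line in part 1, 1.53-fold to 2.65-fold in parts 2 to 6 and 1.23-fold in part 10. Libraries of the groups then overlapped in parts 7 and 8, and in part 9 the treated libraries, at 5.31% to 5.71%, were above the marrow ones, at 3.24% to 3.69%.

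The distance from the untreated mean to the marrow mean gives a scale for how far the treated line had moved. Both of these means were held fixed, so SDs on this scale cover only the spread between the treated samples. How far depended strongly on how repeats were counted. Over all lines, on D plus VH junctions, the treated line had covered 7.63% ± 2.23 (SD, n = 2) of that distance in the VH share and 16.01% ± 3.67 in the distal share. Over distinct junctions it had covered 53.5% ± 6.80 and 89.4% ± 5.13 of it, with untreated means of 16.2% and 1.51%. Both counts kept the treated mean between the untreated and the marrow mean. D joints had bases between the D and JH parts in 84.9% of cases in marrow, 33.3% in treated and 22.5% in untreated cells. Separate D joints without such bases can be alike and count as 1. How far this moves the shares over distinct junctions was not tested. By part, over all lines, the treated line had covered 34.2% ± 6.92 in part 9, 18.8% and 17.8% in parts 7 and 8, 11.7% in part 10 and 4.53% to 8.37% in parts 2 to 6. It had moved the other way in part 1, by -3.98%. On VH junctions alone the distal share covered 184% ± 1.82 of the distance over all lines and 150.4% ± 4.52 over distinct junctions, that is, it passed the marrow value.

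Gene content along the region was described by 4 domains taken from the annotation. The proximal domain, with the Ighv2 (Q52) and Ighv5 genes nearest D, spans 305 kb and 20 genes. It held 25.9% ± 2.96 of VH junctions in marrow, 10.2% ± 0.282 in the treated line and 89.8% in untreated cells. The middle domain of small families, with 25 genes, held 24.7% ± 0.569 in marrow and 19.6% ± 0.363 in treated cells. The block of Ighv1 (J558) genes after it, with 29 genes, held 23.7% ± 0.650 and 18.5% ± 0.558. The far block, where Ighv1 and Ighv8 genes are mixed, spans 933 kb and 38 genes. It held 25.7% ± 2.74 in marrow and 51.7% ± 0.639 in the treated line. Marrow libraries thus spread VH joints almost evenly over the 4 domains, and treated libraries placed most of them in the last. By D plus VH junctions marrow was 27.4-fold, 13.5-fold, 13.7-fold and 5.34-fold above the treated line in these domains, in order from D, over all lines. Over distinct junctions it was 2.99-fold, 1.84-fold and 1.87-fold above it in the first 3, and the libraries overlapped in the far block, at 21.1% ± 2.01 in marrow and 21.2% ± 1.02 in the treated line. The far block then held 32.3% ± 1.20 of VH junctions in marrow and 49.97% ± 1.54 in the treated line.

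Families followed their positions in part. Ighv1, the largest family, held 38.1% ± 4.02 of VH junctions in marrow and 38.4% ± 0.0872 in the treated line, and its libraries overlapped. Ighv8, annotated in the far block, held 2.83% to 3.48% in marrow libraries and 10.96% to 12.7% in treated ones. Ighv5 held 13.7% to 18.0% against 5.77% to 6.56%, and Ighv2 held 8.73% to 11.3% against 4.01% to 4.197%. Ighv9, a small family of the middle domain, held 3.15% ± 0.251 in marrow and 0.625% ± 0.209 in treated cells. Ighv12-3, the 1 Ighv12 gene annotated here, held 1.84% ± 0.531 and 3.60% ± 0.600. Sites with no annotated gene held 9.12% to 12.4% of VH junctions in marrow and 22.8% to 23.9% in treated libraries.

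The profile over single VH segments was compared by the share of VH junctions that would have to be moved to turn one library's profile into the other's. Marrow libraries differed among themselves by 11.7% to 16.1% and treated libraries by 8.67% to 12.8%. A marrow and a treated library differed by 43.6% to 46.7%, and a marrow and an untreated library by 64.2% to 71.0%. A treated and an untreated library differed by 79.0% to 82.0%. The treated line was thus nearer to marrow than the untreated line was, but farther from it than marrow libraries were from each other. Treated libraries of the single igh line lay 12.6% to 19.0% from those described here. Taken over D plus VH junctions, the same distances to marrow were 42.9% to 47.4% for treated and 47.2% to 50.3% for untreated libraries.

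Use of VH segments was broad in both marrow and treated cells. The effective number of segments, the inverse of the summed squared shares, was 47.7 to 64.4 in marrow libraries and 44.6 to 49.2 in treated ones, against 4.37 to 4.42 in untreated ones. The 10 most used segments of a library held 28.9% ± 2.58 of VH junctions in marrow, 37.5% ± 2.47 in the treated line and 87.4% ± 0.762 without treatment. Ighv5-2 was the most used segment in marrow and in untreated cells, and a site with no annotated gene at position 116930100 was the most used in treated cells.

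Single segments were then tested with limma voom on junction counts, with VH junctions as the library size and Benjamini-Hochberg adjustment over the 201 segments that had at least 10 junctions. As a share of VH junctions 39 segments were higher in the treated line than in marrow (19.4% of those tested) and 11 were lower (5.47%) at an adjusted p under 0.05. Of the 39 higher ones, 38 had no overlap between the libraries, as did all 11 lower ones. In all, 50 segments were higher without overlap (24.9%) and 64 were lower without overlap (31.8%). A segment with 10 junctions in 1 group alone entered the test through that group. Of the 39 higher segments 13 had under 10 marrow junctions, 7 of them none, and among the 114 segments with at least 10 junctions in both groups 26 were higher and 10 were lower. The far block held 33 of the 39 higher segments among its 72 tested, and 2 lower ones. Among its 42 segments with at least 10 junctions in both groups, 21 were higher and 2 were lower. The proximal domain held 4 lower segments among 21 tested. The middle domain had 3 higher and 3 lower of 49, and the Ighv1 block had 3 and 2 of 59. The median log2 ratio of treated to marrow shares was 1.93 in the far block and -1.35 in the proximal domain, beside 0.47 over all tested segments, with segments at 0 set to 3 junctions per library. That floor was 0.0564% of VH junctions in the treated line and 0.00337% in marrow. Of the tested segments 25 had no treated junction and 7 no marrow junction, so a segment at 0 in treated cells could still score as higher there. Over the segments with at least 10 junctions in both groups the median was 1.56 in the far block, -1.35 in the proximal domain, -0.76 in the Ighv1 block and -0.44 over all 114.

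By family, beside 19.4% higher and 5.47% lower over all tested segments, 5 of 6 tested Ighv8 segments were higher in the treated line, 11 of 55 Ighv1 segments were higher and 5 lower, which for the higher ones is near the share over all segments, and 3 of 9 Ighv5 segments were lower. Annotated segments had 17 higher and 10 lower of 105, all of them among the 92 with at least 10 junctions in both groups. Sites with no annotated gene had 22 higher of 96, but 13 of those 22 had under 10 junctions in a group, and of the 22 such sites with at least 10 junctions in both groups 9 were higher. Among the 82 segments with at least 0.5% of VH junctions in either group, 22 were higher and 11 were lower.

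With D plus VH junctions as the library size the same fit called 1 segment higher (0.498%) and 118 lower (58.7%) in the treated line. The higher one was a site at position 116360128 with 16 treated junctions and none in marrow, which entered the test through the treated line alone, so that its direction was fixed by the filter. At an unadjusted p under 0.05, 2 segments were higher and 121 lower. Of the 118 lower calls 16 were at segments with under 10 treated junctions. Among the 114 segments with at least 10 junctions in both groups, 102 were called lower and 0 higher.

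The counts of calls moved with the libraries and settings used. Leaving out treated library 3 leaves 1 treated sample, since libraries 1 and 2 count as 1, and its spread is then taken from marrow. That fit called 17 higher and 1 lower on VH junctions, without library 2 it called 23 and 5, and without library 1 it called 28 and 7. Without marrow library 1 the lower calls were 18, and without marrow library 2 they were 20. The fixed prior count of 0.5 weighs more in the shallow treated libraries, and with a prior in proportion to the library size the calls were 44 higher and 52 lower. Median-of-ratios size factors gave 41 and 5, and distinct junctions gave 35 and 60. A quasi-binomial model with no sharing of spread between segments called 0 and 0, with 27 higher and 16 lower at an unadjusted p under 0.05.

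**Figure D3:**
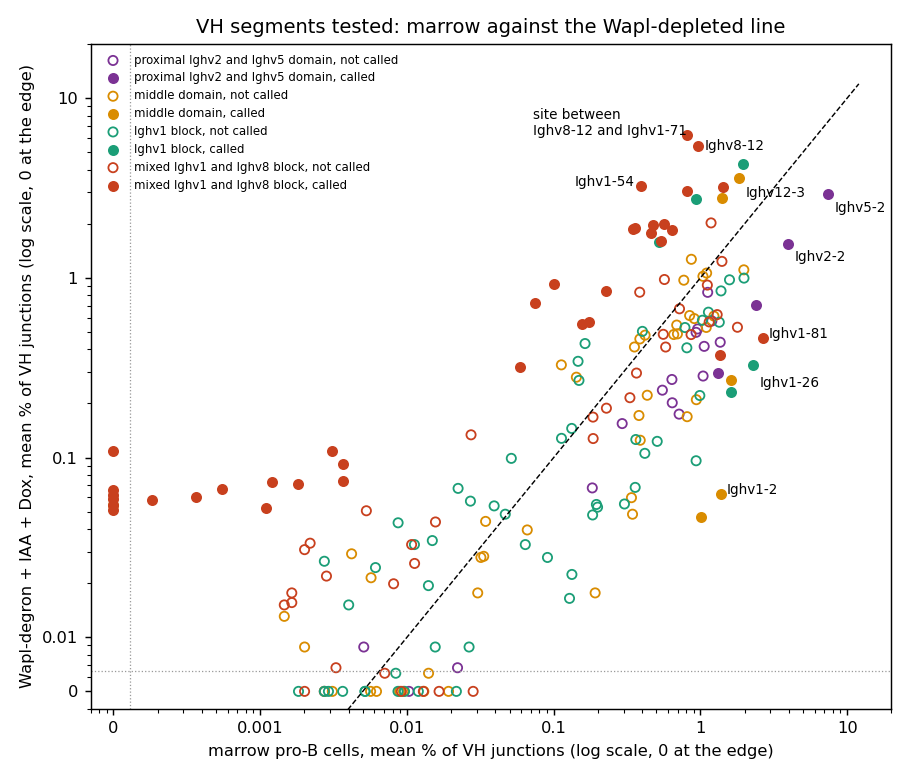
Each point is 1 of the 201 tested VH segments, with its mean percent of VH junctions in marrow (horizontal) and in the treated line (vertical), on log axes with 0 drawn at the edge; colour gives the domain, filled points were called at an adjusted p under 0.05 and the dashed line marks equal shares. Points of the far block lie mainly above the line, and 20 of the 21 points of the proximal domain lie below it.

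The most used site of the treated line was at position 116930100, in part 9, where the mm9 annotation has no gene. In the RefSeq table of a later mouse build the annotated genes on either side, Ighv8-12 and Ighv1-71, enclose Ighv1-70. The site took 0.679%, 0.857% and 0.881% of VH junctions in marrow libraries and 6.53%, 6.23% and 6.02% in treated ones. Untreated libraries gave it 0.0941% to 0.138%. Treated libraries were all above marrow libraries, by 2.98 on the log2 scale, with an SE of 0.24 (limma adjusted p = 7.36e-07). The site took 0.403% of D plus VH junctions in marrow and 0.287% in the treated line, and the fitted log2 difference of -0.50 did not pass the test (limma adjusted p = 0.174). Over distinct junctions that difference turned to 1.73 (limma adjusted p = 8.15e-11), and without the smaller run of treated library 3 it was -0.72 (limma adjusted p = 0.0294).

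Ighv8-12, an Ighv8 family gene in the same part (chr12:116886172-116886572), took 1.07%, 1.12% and 0.710% in marrow libraries. It took 5.50%, 5.46% and 5.30% in treated ones. Its share rose by 2.48 on the log2 scale, with an SE of 0.26 and no overlap (limma adjusted p = 8.05e-06). As a share of D plus VH junctions it fell by 0.99 on that scale (limma adjusted p = 0.00363), the smallest fall among the named segments that passed there, and it turned to 1.37 higher over distinct junctions (limma adjusted p = 1.05e-08).

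Ighv1-54, a J558 gene in part 7 (chr12:116431886-116432319), took 0.496%, 0.322% and 0.363% in marrow libraries. The treated libraries gave it 3.25%, 3.30% and 3.21%, all far above marrow, by 3.03 on the log2 scale with an SE of 0.29 (limma adjusted p = 3.07e-06). It was the only named annotated segment whose treated and marrow libraries overlapped on D plus VH junctions, where the means were 0.196% in marrow and 0.151% in the treated line (limma adjusted p = 0.288). Over distinct junctions the log2 difference there was 1.26 (limma adjusted p = 1.34e-07).

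The other 3 of the 6 most used sites of the treated line were used well in marrow too. The site at position 115850454, in the Ighv1 block, took 1.39%, 2.14% and 2.30% in marrow libraries and 4.47%, 4.83% and 3.99% in treated ones (limma adjusted p = 0.00737). RefSeq places Ighv1-10 and Ighv1-11 between its annotated neighbours Ighv1-9 and Ighv1-12. Ighv12-3 (chr12:115604737-115605165) took 1.35%, 1.76% and 2.41% in marrow and 4.09%, 3.97% and 3.18% in treated libraries (limma adjusted p = 0.0171). Ighv8-8 (chr12:116532289-116532709) took 1.80%, 1.08% and 1.39% in marrow and 3.73%, 2.94% and 3.09% in treated libraries (limma adjusted p = 0.0104). In each of the 3 all treated libraries lay above all marrow libraries. The call at Ighv12-3 was lost without treated library 2 (limma adjusted p = 0.0545), with a log2 difference of 1.01. In the fit with 1 treated sample, without library 3, the log2 difference at Ighv8-8 was 1.18. Over the 20 other settings run on VH junctions, the call at Ighv12-3 was lost in 2 and its direction turned in 1. At Ighv8-8 the call was lost in 4 of them and the direction turned in 1.

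The 6 most used segments of marrow were Ighv5-2, Ighv2-2, Ighv1-81, Ighv5-4, Ighv1-26 and Ighv1-18. Ighv5-2 (VH81X, chr12:114816715-114817201) is the functional VH gene nearest D. It took 5.84%, 7.09% and 9.40% of VH junctions in marrow libraries and 3.18%, 2.99% and 2.75% in treated ones. Untreated libraries gave it 42.0%, 41.8% and 41.3%. The 3 groups did not overlap, and the fall from marrow to the treated line was a log2 difference of -1.31 with an SE of 0.29 (limma adjusted p = 0.0061). The direction was the same in all settings run, but the call was lost with median-of-ratios size factors (log2 difference -0.85, limma adjusted p = 0.0527), with segments of at least 1 junction (limma adjusted p = 0.0526), with untreated libraries in the fit (limma adjusted p = 0.0648), with all junctions as library size (limma adjusted p = 0.0588) and in the quasi-binomial model (adjusted p = 0.629). Over distinct junctions the log2 difference was -0.47 (limma adjusted p = 0.0471).

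Its neighbour Ighv2-2 (chr12:114826478-114826911) took 3.60%, 4.30% and 4.01% in marrow, 1.61%, 1.62% and 1.48% in treated and 20.02% to 20.4% in untreated libraries (log2 difference -1.33, SE 0.31, limma adjusted p = 0.00737). Ighv5-4 (chr12:114835657-114836116), the next Ighv5 gene named, took 2.10%, 2.53% and 2.57% in marrow and 0.479%, 0.650% and 0.847% in treated libraries (log2 difference -1.85, limma adjusted p = 0.00882). All 3 of these genes near D were lower in the treated line than in both other groups. Without treated library 3, which leaves 1 treated sample, the log2 differences were -1.28 at Ighv2-2 and -1.996 at Ighv5-4. Without treated library 2 that at Ighv5-4 was -1.81 (limma adjusted p = 0.0575). Across the 20 other settings run on VH junctions, the call was lost in 4 at Ighv2-2 and in 3 at Ighv5-4. Of D plus VH junctions marrow libraries gave 27.8-fold, 27.7-fold and 35.4-fold more than treated ones to Ighv5-2, Ighv2-2 and Ighv5-4 over all lines. Over distinct junctions the log2 differences on that scale were -1.08, -1.47 and -1.90 (limma adjusted p = 1.59e-06, 1.05e-08 and 1.07e-08), far smaller than the -4.81, -4.86 and -5.45 over all lines. Median-of-ratios size factors replace that library size and by construction set aside the common difference of all segments. With them the log2 differences were -0.85, -0.86 and -1.37, which do not measure the gap on D plus VH junctions. The first 2 did not pass (limma adjusted p = 0.0527, 0.0728 and 0.0463).

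Not all genes of the far block rose with it: Ighv1-81 was lower in the treated line. Ighv1-26 and Ighv1-18, also named for their use in marrow, lie in the Ighv1 block. That block as a whole held 23.7% of VH junctions in marrow and 18.5% in the treated line. Ighv1-18 lies before the midpoint, so it is not distal as defined here. Ighv1-81 (chr12:117158490-117158923), close to the distal end in part 10, was the third most used segment in marrow, at 2.11%, 2.32% and 3.58%. Treated libraries gave it 0.454%, 0.514% and 0.441%, all below marrow (log2 difference -2.42, SE 0.66, limma adjusted p = 0.0146). Ighv1-26 (chr12:116026583-116027016), just beyond the midpoint, took 2.40%, 2.32% and 2.14% in marrow and 0.505%, 0.176% and 0.318% in treated libraries (log2 difference -2.90, limma adjusted p = 0.00785). No untreated library held a junction there. In the fit with 1 treated sample, without library 3, the log2 differences were -2.36 at Ighv1-81 and -2.96 at Ighv1-26. Among the 20 other settings run on VH junctions, the call was lost in 4 at Ighv1-81 and in 2 at Ighv1-26. Ighv1-18 (chr12:115920885-115921276) was lower in all treated libraries, at 0.883% to 1.11% against 1.86% to 2.13%, but its log2 difference of -0.93 did not pass the test (limma adjusted p = 0.0865). It passed in 7 of the 20 other settings, among them without marrow library 1 (limma adjusted p = 0.034) or library 2 (limma adjusted p = 0.0461).

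The largest falls among called segments without overlap were at Ighv1-2 and at a site beside it. Ighv1-2 (chr12:115707316-115707438), whose joining peak lies at the border of the middle domain, took 1.17%, 1.48% and 1.49% in marrow libraries, on 4293 junctions. Treated libraries gave it 0.0757%, 0.0677% and 0.0530%, on 11 junctions in all (log2 difference -4.30, SE 1.22, limma adjusted p = 0.0171). The site at position 115700501 went from 0.836% to 1.30% in marrow libraries to 0.0353% to 0.0757% in treated ones (limma adjusted p = 0.0355). With 3082 marrow and 8 treated junctions it met the minimum of 10 through marrow alone, so its call is given as a description. Ighv1-19 (log2 difference -2.62, limma adjusted p = 0.0189) and Ighv9-3 (log2 difference -2.47, limma adjusted p = 0.0287) completed the 6 largest such falls with Ighv1-26 and Ighv1-81. Segments that were not called could have larger fitted falls, such as Ighv14-1 at -3.81 and Ighv1-5 at -3.24, which are named after their values were seen. The calls at Ighv1-2, at the site beside it, at Ighv1-19 and at Ighv9-3 were lost without treated library 3, which leaves 1 treated sample (limma adjusted p = 0.328, 0.417, 0.298 and 0.331). The log2 differences there were -4.17, -4.08, -2.55 and -2.10. The last 3 calls were also lost without treated library 2 (limma adjusted p = 0.0855, 0.0561 and 0.0575), Ighv1-19 and Ighv9-3 without treated library 1 (0.0576 each), and position 115700501 without marrow library 1 (0.0697). Counting all other settings run on VH junctions, the call was lost in 2 of 20 at Ighv1-2 and 7 of 19 at position 115700501. It was lost in 5 of 20 at Ighv1-19 and 7 of 20 at Ighv9-3. With each library left out in turn the log2 difference ranged from -4.41 to -4.17 at Ighv1-2 and from -3.22 to -2.40 at Ighv1-19.

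The 6 highest fitted ratios of treated to marrow were at sites without an annotated gene and without a junction in marrow. These sites passed the minimum of 10 junctions through the treated line alone, so their direction was fixed by that filter and they are given as a description. They lay at positions 116360128, 116598976, 116885868, 116812797, 115369186 and 116611555, and each rested on 10 to 16 treated junctions. Taken against 3 junctions per marrow library, their shares of VH junctions were at least 32.4-fold, 19.5-fold, 18.3-fold, 17.5-fold, 16.1-fold and 16.1-fold higher in the treated line. Each took at most 0.109% of treated VH junctions. The first matched the RSS heptamer and 3 of the 9 nonamer bases.

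The joining sites were next searched for their signals. The best candidate signal was taken on the gene strand from 15 bases before to 6 after the junction peak of 191 segments. Candidates that start with CAC came first, then those with most matches to the heptamer and nonamer. Its heptamer was exactly CACAGTG at 113 segments (59.2%). Points placed every 1000 bases over the VH region had a looser count, of CACAGTG anywhere in the same window. They held it on that strand in 0.247% of cases and on either strand in 0.618%. The exact heptamer was at 75.7% of annotated segments and at 35 of 88 sites without an annotated gene. Of the 9 such sites with at least 0.5% of VH junctions in a group, 7 had it, and of the 79 rarer ones 28 had it. By the segment test 20 of 38 higher segments, 8 of 11 lower ones and 85 of 142 not called had the exact heptamer. Matches to the heptamer and nonamer together, out of 16 bases and with a spacer of 22 to 24, had a median of 13 over all segments. The median was 11 among the 38 higher segments searched, which include sites with few or no marrow junctions, and 14 among the 11 lower ones. With at least 10 junctions in both groups, it was 13 among the 17 higher annotated segments, 14 among the 9 higher sites without an annotated gene and 14 among the 10 lower annotated segments.

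Some segments had identical signals. The signal printed for Ighv1-54 and for the site at position 116930100 was identical at the site at position 117028804 and at Ighv1-78. All 4 were higher in the treated line, by 3.76-fold to 9.17-fold, and the set was singled out after its values were seen. The signal printed for Ighv1-26 was also at Ighv1-18, Ighv1-31 and the site at position 115974458, where treated shares were 0.144-fold to 1.09-fold those of marrow and only Ighv1-26 passed the test. The signal of Ighv1-81 matched 13 of 16 consensus bases and that of Ighv1-54 matched 14. VH genes with near-identical sequence could exchange reads at mapping, so the level of each such gene is uncertain.

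The joints themselves also differed between marrow and the treated line. In VH joints the median number of bases between the VH and JH parts, which include the D segment, was 17 or 18 in marrow libraries, 12 in each treated library and 13 or 14 in untreated ones. Fewer than 5 such bases were found in 3.15% ± 0.510 of VH joints in marrow, 12.1% ± 0.0237 in the treated line and 10.8% ± 1.54 without treatment. In D joints, bases between the D and JH parts were present in 84.9% ± 0.410 in marrow, 33.3% ± 1.11 in the treated line and 22.5% ± 1.89 without treatment. The treated line was outside the marrow range in all 3 measures and nearer to the untreated line (exact permutation p = 0.2 each, the smallest possible, for treated against marrow). How far these differences bear on the VH profile was not tested.

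D use differed from marrow in a direction of its own. Ighd4-1 (DQ52), the D segment nearest JH, took 7.07% to 8.55% of D junctions in marrow libraries, 59.2% to 62.5% in treated ones and 9.36% to 13.0% in untreated ones. Ighd1-1 (DFL16.1) took 44.1% to 46.3% in marrow, 23.2% to 25.4% in treated and 76.0% to 78.8% in untreated libraries. The D junctions that stand in the D plus VH total were therefore made at different segments in the 3 groups. The treated single igh libraries stood on the same side of marrow, with 39.1% to 57.4% at Ighd4-1 and 21.9% to 33.5% at Ighd1-1. Among VH joints, Ighj4 was the JH partner in 17.6% ± 0.938 in marrow and 6.12% ± 0.501 in the treated line, while Ighj1, Ighj2 and Ighj3 had overlapping libraries. JH use also differed within groups. Ighj2 took 63.5%, 45.2% and 59.5% in treated libraries 1, 2 and 3, although libraries 1 and 2 count as 1 sample. It took 0% in untreated library 1, against 59.0% and 60.2% in untreated libraries 2 and 3.

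**Figure D4:**
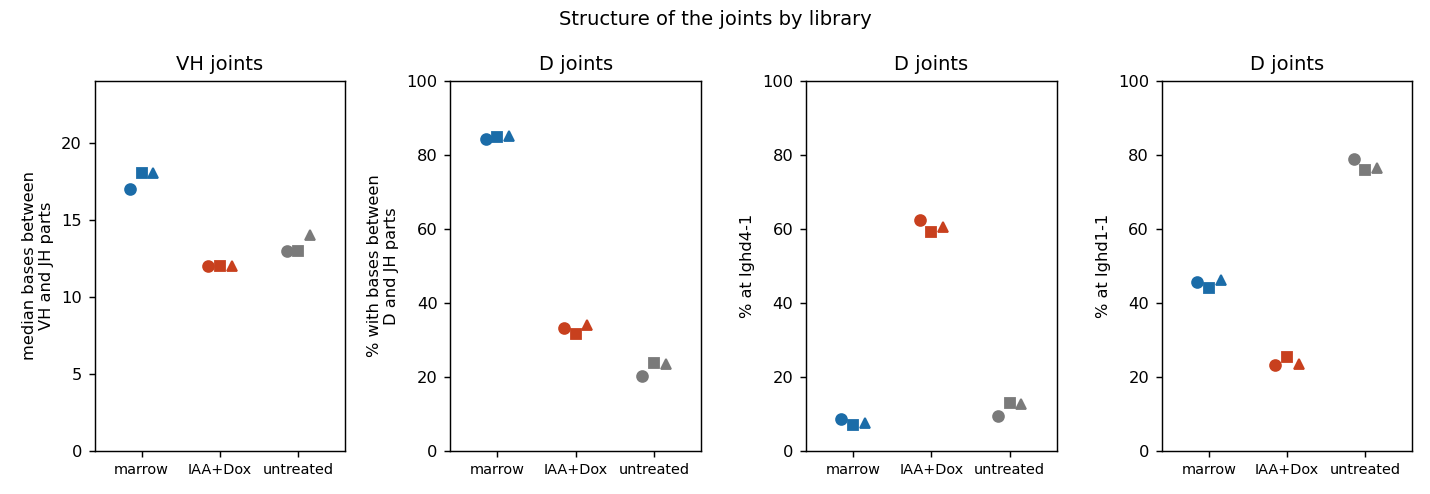
The panels show, for each library, the median number of bases between VH and JH parts, the percent of D joints with bases between D and JH parts, and the percent of D junctions at Ighd4-1 and at Ighd1-1. Treated libraries lie near untreated ones in the first 2 panels and apart from both other groups in the last 2.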

How the data were processed

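LAM-HTGTS junction lists of 12 libraries with a JH bait were used: 3 WT BM, 3 treated and 3 untreated Wapl-degron, and 3 treated single igh. The authors' deposited lists give 1 junction record per line, as the position and strand of prey and bait, which is no measured level and has no normalization. Reads were aligned to mm9, and Bowtie2 is named, per the submitters' processing notes, with no version. The filters' thresholds, including that for duplicates, are not given in the sources used here.

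Counts were made here by counting lines. In treated library 2, 28.4% of lines repeated a read name, and counting each name once is among the settings tried. Junction positions at most 20 bp apart were merged into a segment, which took the name of a gene annotated no more than 20 bp away. This gave 426 segments in the VH region, 127 of them with such a gene. Gene models were those of the mm9 annotation, of which 136 of 137 had a RefSeq symbol. The distal part is the region beyond its midpoint. Group shares were tested by exact permutation, two-sided (scipy 1.17.1), adjusted over the 3 shares by Benjamini-Hochberg (adjusted p = 0.2 for each), and by limma 3.58.1 (voom, prior count 0.5) in R 4.3.3. On simulated data the segment test recovered 98.5% of 4-fold changes with 2.61% false calls over 201 segments, with a simulated spread of 0.2 (natural log) between samples. That spread was not compared with the spread of the real segments, and the treated samples here share joints, so these rates may not hold for the real data. For example, Ighv9-4, at 0.811% in marrow and 0.169% in the treated line, was not called (limma adjusted p = 0.0815).

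The plan had 3 treated samples. Treated libraries 1 and 2 are 1 sample here, which changes n to 2, and single igh libraries 1 and 3 were joined likewise. Means and SDs are over samples, and ranges and overlaps are over libraries. The named segments are, in each group, the 6 with most use, then the 6 called ones without overlap that rose most and the 6 that fell most, and Ighv5-2, Ighv2-2, Ighv1-26, Ighv1-81 and Ighv8-12. The members and lists were chosen with earlier results of these data known. Other settings tried are given at the end. Off-target and pooled lists and other samples were not used here. Python 3.11.15, pandas 2.3.3, numpy 2.4.6 and matplotlib 3.10.9 were used.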

Additional observations from a re-analysis of the deposited data

How the results depend on the processing

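The 3 shares kept their direction under all settings run. With each library left out in turn the VH share differed from marrow by -46.1 to -44.7 points, the distal share of VH by 23.7 to 26.2 and the distal share of D plus VH by -14.3 to -13.3. Replicate numbers did not pair marrow with treated libraries (correlations of same-numbered deviations 0.056, -0.012 and -0.025 over 125 segments). Without treated library 3 the treated arm is 1 sample, assumed to vary as marrow does. Counts of calls moved more. On VH junctions, higher calls (39) were 17 to 40 with a library left out, 162 with at least 1 junction, 21 with at least 100, 17 over annotated segments, 63 with the replicate block, 0 by the quasi-binomial model and 0 with all junctions as library size (4 higher at an unadjusted p under 0.05 in limma). Lower calls (11) were 1 to 20 with a library left out, 5 with median-of-ratios size factors, 60 with distinct junctions, 45 with the replicate block, 0 by the quasi-binomial model, 21 with treated libraries 1 and 2 as separate samples and 52 with a proportional prior. On D plus VH junctions, higher calls (1) were 0 to 3 with a library left out, 0 with at least 100 junctions, 0 over annotated segments, 0 without the smaller run of treated library 3, 41 with median-of-ratios size factors, 20 with distinct junctions, 7 with the untreated libraries in the fit, 9 with the replicate block, 7 by the quasi-binomial model, 3 with the single igh line, 7 with separate samples and 4 with a proportional prior. Lower calls (118) were 94 to 125 with a library left out and 5 with median-of-ratios size factors, which by construction set aside the common difference of all segments.

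Directions reversed only on the following settings. Median-of-ratios size factors replace the D plus VH library size and set aside the common difference of all segments. Their signs are therefore not those of D plus VH shares. On D plus VH junctions the log2 fold changes with median-of-ratios size factors were 3.52 at Ighv1-54, 1.502 at Ighv12-3, 2.96 at Ighv8-12, 1.64 at Ighv8-8, 1.68 at position 115850454 and 3.43 at position 116930100. With distinct junctions they were 1.26, 0.28, 1.37, 0.53, 0.37 and 1.73 in the same order. With all junctions as library size, on which marrow libraries differ widely, Ighv12-3 was at -1.04, Ighv8-8 at -0.81 and position 115850454 at -0.85. The prior proportional to library size, that setting, the separate samples, the run settings and the distances, parts and domains over distinct junctions were chosen after seeing the data. Treated depth limits rare sites: 3 junctions are 0.0406% to 0.0757% of a treated library's VH junctions.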
